A study of Mus musculus with 18 samples.

Results

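The genes that encode the subunits of the proteasome were described in nascent RNA from mouse embryonic stem (ES) cells. Members were the genes whose symbol starts with Psma, Psmb, Psmc or Psmd followed by a number, and 39 of the 21859 genes in the deposited table matched. The rule took 19 core particle genes (Psma and Psmb), 6 ATPase genes (Psmc) and 14 genes for non-ATPase regulatory subunits (Psmd). The measurements came from TT-seq, a method that labels new transcripts briefly with 4-thiouridine (4sU) and sequences the labelled fraction, so that values follow ongoing transcription and not the amount of stored mRNA. The study asked what loss of SPT16, a subunit of the histone chaperone FACT, does to transcription, and 18 libraries in 6 conditions of 3 were collected. All libraries came from E14 cells that carry the plant F-box protein osTIR1 and grew in medium with LIF and 2i. The conditions were untagged cells, SPT16_AID_V5 Clone1 and SPT16_AID_V5 Clone2, each given 0.1% ethanol (EtOH) or the auxin 3-IAA for 24 h. In both AID clones, which are isolated clones of one targeting design, Supt16 was homozygously tagged at its C terminus with an auxin-inducible degron and V5. The labels give the auxin as 500 nM and the 5 min 4sU pulse as 500 mM, whereas the study's methods give both in micromolar.

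The proteasome is the protease of the nucleus and cytosol that degrades proteins marked with ubiquitin. Its core particle is a stack of rings of alpha subunits, which gate the entrance, and beta subunits, some of which carry the catalytic sites. The regulatory particle caps this core. A ring of ATPases in its base unfolds substrates, while the non-ATPase subunits of the base and lid bind and remove ubiquitin and hold the assembly together. Degradation through an auxin-inducible degron itself runs through the proteasome. Several genes of the family are not general subunits. Psmb8, Psmb9 and Psmb10 encode the catalytic subunits of the immunoproteasome, which immune cells and interferon-treated cells make in place of the usual ones. Psmb11 encodes a catalytic subunit of thymic cortical epithelium, Psma8 an alpha subunit of male germ cells, and Psmd5, Psmd9 and Psmd10 encode factors that help build the regulatory particle and leave it afterwards. The remaining 31 genes are named constitutive here.

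The level used throughout is the authors' deposited mean of size-factor-normalized read counts, which by its construction averages the libraries of a fit, control and SPT16-depleted alike, into 1 value per gene. It has no replicate spread, so no ratio below has an error and no difference was tested. The change of a gene on SPT16 depletion is not reported here, and a level that differs between conditions cannot be seen in this mean. Levels of different genes were compared after division by length, once by the summed exon length and once by the gene span from start to end. Nascent RNA contains introns, and whether intronic reads were counted is not given in the sources used here. The labelled cell type was checked with 7 ES cell markers, all of which lay above the median gene, between 401 and 2910 mean normalized counts per kb of span. Fibroblast genes Col1a1, Col1a2 and Thy1 lay between 0.250 and 4.94 per kb of span, and the haematopoietic genes Ptprc and Csf1r at 0.0505 and 0.492, while Cd68 stood at 415. In such bulk samples fewer cells of a type and less RNA per cell cannot be told apart.

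A few promoters are shown because the transcription upstream of these genes, or the motifs in front of them, bears on the results below. Each runs 5′ to 3′ on the strand of the gene, comes from RefSeq on GRCm38.p6, and ends directly before the annotated start, except that of Psmb5, from which the last 27 bases were left off because another annotated transcript of the gene covers them. Psmd2 (chr16:20651402-20651651, + strand), Psmd11 (chr11:80428365-80428614, + strand) and Psmd4 (chr3:95042615-95042864, - strand) hold the ETS motif CCGGAAG. Psmd14 (chr2:61711444-61711693, + strand) does not, and was the gene with the longest span and one of the lowest upstream levels. Whether the ETS motif goes with the upstream level was not tested. Psmb6 (chr11:70525107-70525356, + strand) and Psmb5 (chr14:54618023-54618245, - strand), which encode catalytic subunits, hold TGACNNNGC, the core of the antioxidant response element that NRF1 and NRF2 bind. Capitals mark every match, on either strand, to the 8 motifs named further on.
Psmd2: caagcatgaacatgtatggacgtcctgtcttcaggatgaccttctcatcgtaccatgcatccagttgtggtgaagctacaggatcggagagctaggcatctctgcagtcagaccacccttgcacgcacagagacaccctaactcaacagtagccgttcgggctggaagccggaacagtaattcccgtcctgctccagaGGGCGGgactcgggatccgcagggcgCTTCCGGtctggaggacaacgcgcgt
Psmd11: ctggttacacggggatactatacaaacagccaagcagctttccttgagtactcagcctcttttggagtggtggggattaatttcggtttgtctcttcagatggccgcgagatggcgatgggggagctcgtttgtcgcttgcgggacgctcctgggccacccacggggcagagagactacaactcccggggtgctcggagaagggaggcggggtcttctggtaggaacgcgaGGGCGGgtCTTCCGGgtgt
Psmd4: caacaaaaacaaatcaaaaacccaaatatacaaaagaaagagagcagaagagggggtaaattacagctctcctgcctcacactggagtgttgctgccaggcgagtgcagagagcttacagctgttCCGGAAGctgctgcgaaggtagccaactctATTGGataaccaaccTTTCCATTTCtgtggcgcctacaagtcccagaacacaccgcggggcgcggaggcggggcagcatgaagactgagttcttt
Psmd14: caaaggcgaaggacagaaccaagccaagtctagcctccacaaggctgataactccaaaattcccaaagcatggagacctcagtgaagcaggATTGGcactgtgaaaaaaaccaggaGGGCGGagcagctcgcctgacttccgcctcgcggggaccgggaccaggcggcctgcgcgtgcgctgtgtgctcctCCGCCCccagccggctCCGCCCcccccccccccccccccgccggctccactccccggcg
Psmb6: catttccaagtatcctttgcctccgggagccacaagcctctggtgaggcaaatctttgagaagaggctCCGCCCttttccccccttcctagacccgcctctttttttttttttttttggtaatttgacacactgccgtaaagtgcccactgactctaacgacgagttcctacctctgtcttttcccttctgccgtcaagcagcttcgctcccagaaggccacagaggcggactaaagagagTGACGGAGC
Psmb5: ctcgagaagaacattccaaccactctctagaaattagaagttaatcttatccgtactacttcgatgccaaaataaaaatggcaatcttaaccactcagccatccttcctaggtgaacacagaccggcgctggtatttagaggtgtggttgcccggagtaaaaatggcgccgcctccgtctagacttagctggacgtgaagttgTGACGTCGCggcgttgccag

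The core particle genes fell into a high and a low set. All 14 constitutive core genes lay above the median gene, and their median level was 1274 mean normalized counts per kb of exon and 248 per kb of span. The 4 restricted beta genes had at most 57.0 per kb of exon. Across all 39 members, 35 lay above the median gene with reads on either per-kb scale, where that gene stood at 120 per kb of exon and 21.7 per kb of span, and 31 lay above the upper quartile. Of the 31 constitutive genes, 31 lay above the median and 30 above the upper quartile on each scale. The members together took 0.297% of the summed mean counts of the gene table. All 39 had a mean count of at least 1, the limit the study set for transcribed genes in its pathway analysis. At least 10 was reached by 38, with Psmb8 the exception.

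**Figure D1:**
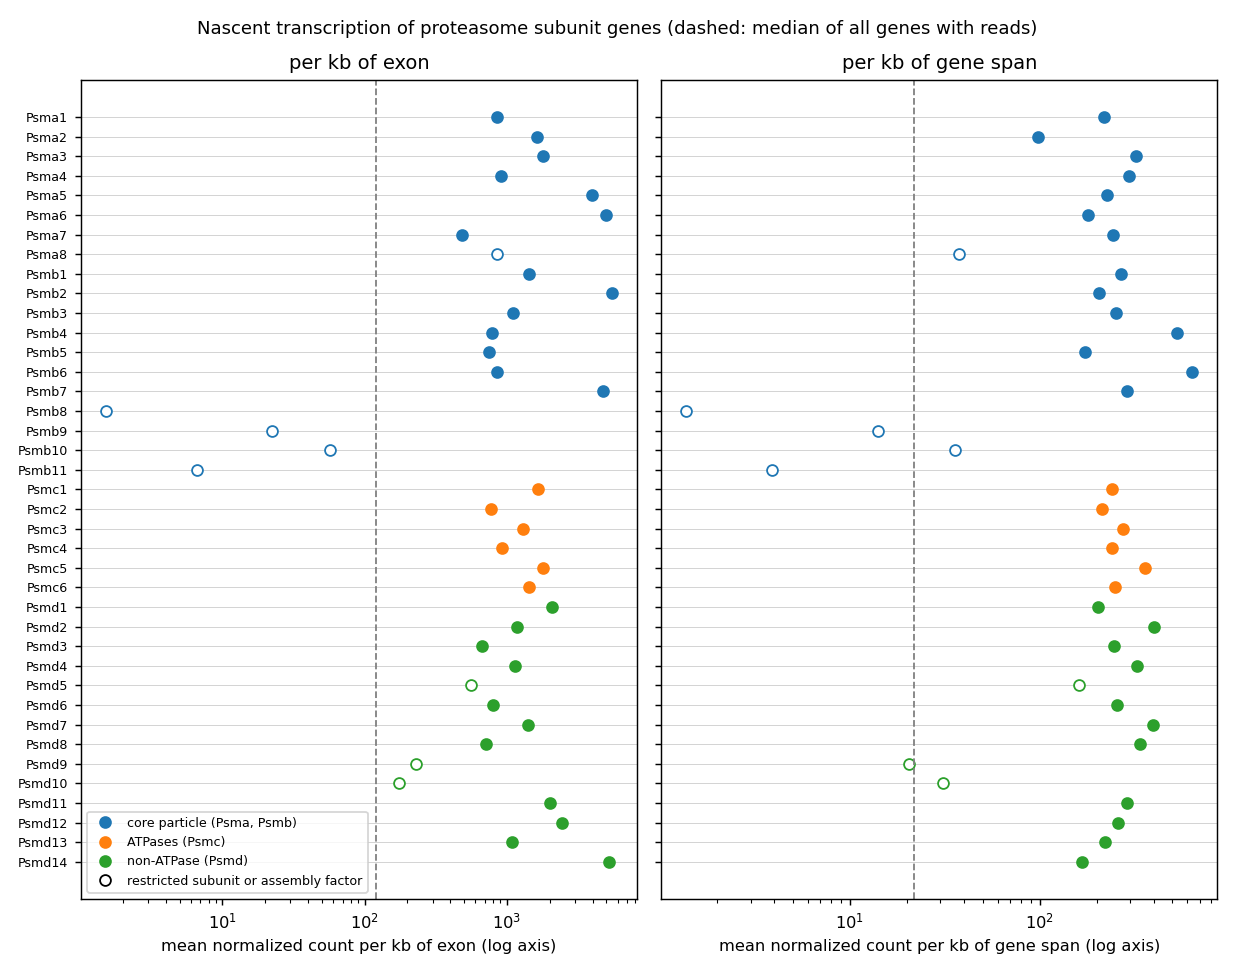
Mean normalized count of each of the 39 genes per kb of exon (left) and per kb of gene span (right), on log axes. Each circle is the authors' pooled mean, open circles are restricted subunits or assembly factors, and the dashed line is the median of all genes with reads; the constitutive genes lie closer together on the right.

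Among the alpha subunits, which form the gated outer rings, the order of the genes depended on the length used. Per kb of exon Psma6 was highest at 4992, followed by Psma5 at 3952. Psma3 at 1784 and Psma2 at 1632 lay between these and a lower set. That lower set held Psma4 at 907 and Psma1 at 846 per kb of exon, with Psma7 last at 480. Per kb of span Psma3 led at 320, and Psma4 at 297, Psma7 at 243, Psma5 at 226, Psma1 at 217 and Psma6 at 180 followed closely. Psma2 was the lowest constitutive gene of the family on that scale, at 98.3 per kb of span. Its annotated span of 60997 bp overlaps the coding gene AW209491 on the same strand over 14.7% of its length. Psma6 has a further RefSeq promoter, chr12:55398575-55398824, inside its annotated span. The value and rank of Psma6 per kb of span therefore depend on which start is used.

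The constitutive beta subunits include the 3 that carry the protease activity, Psmb6 (caspase-like), Psmb7 (trypsin-like) and Psmb5 (chymotrypsin-like). Before division by length these genes differed widely, with mean counts of 1582 for Psmb6, 16173 for Psmb7 and 673 for Psmb5. Psmb7, at chr2:38588036-38644087, had the highest mean count of all members and Psmb5, at chr14:54614119-54618022, the lowest of the constitutive ones. Per kb of span the levels were 635 for Psmb6, 289 for Psmb7 and 172 for Psmb5, so that Psmb6 was the highest of all 39 genes on this scale. Psmb6 also has the shortest span of all members, 2492 bp. Over the constitutive genes log2 count rose with log2 span at a slope of 0.76, so division by span favours short genes. Psmb4, a structural subunit with a span of 2869 bp, was next at 530. The other structural subunits stood at 267 for Psmb1, 253 for Psmb3 and 205 for Psmb2 per kb of span. Per kb of exon Psmb2 was instead the highest member, at 5469, with Psmb7 at 4727. Psmb1 at 1435 and Psmb3 at 1113 lay below, as did Psmb6 at 845, Psmb4 at 780 and Psmb5 at 749.

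The immunoproteasome genes were low against the constitutive genes whose products they replace. Psmb8 had a mean count of 5.14, Psmb9 of 81.6 and Psmb10 of 97.2, and these genes stood at 1.52, 22.3 and 57.0 per kb of exon. Psmb5 exceeded Psmb8 by 493-fold per kb of exon and by 125-fold per kb of span. Psmb6 exceeded Psmb9 by 37.9-fold per kb of exon and by 45.0-fold per kb of span. Psmb7 exceeded Psmb10 by 82.9-fold per kb of exon, but by only 8.04-fold per kb of span, since Psmb7 spans 56052 bp and Psmb10 only 2710 bp. The direction held for all 3 pairs on both scales and without division by length. Psmb8 and Psmb9 lie on chromosome 17, with 9956 bp between them.

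The other restricted core genes were unlike each other. Psmb11 lies 3410 bp from Psmb5 on chromosome 14, yet had a mean count of 31.7 against 673, and 3.90 against 172 per kb of span. Psma8 replaces Psma7 in germ cells and was not low by count, at 2111 against 1473 for Psma7. Per kb of exon it stood above Psma7, at 846 against 480, but per kb of span it stood below it, at 37.6 against 243. No order of these alpha subunit genes can be given without knowing how reads in introns were counted.

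Of the classes, the 6 ATPases were the most alike. Per kb of span they ran from 212 for Psmc2 to 360 for Psmc5, a ratio of 1.70, with a standard deviation over genes of 0.26 on the log2 scale. Psmc3 stood at 273, Psmc6 at 250, Psmc1 at 242 and Psmc4 at 239 per kb of span, so that 5 of the 6 lay in a narrow band below Psmc5. Their mean counts ran from 2009 for Psmc4 to 4987 for Psmc6. Per kb of exon Psmc5 again led at 1801, with Psmc1 at 1656, Psmc6 at 1426, Psmc3 at 1295, Psmc4 at 929 and Psmc2 at 778. The same deviation was 0.66 per kb of span for the 14 constitutive core genes and 0.40 for the 11 constitutive Psmd genes. The ATPase genes also varied least in span itself. That deviation was 0.60 on the log2 scale, against 1.54 for those core genes and 1.31 for those Psmd genes. Whether this bears on their likeness per kb of span was not tested.

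Of the non-ATPase genes of the base, Psmd2, whose product is a scaffold that docks ubiquitin-like domains, stood at 401 per kb of span, the highest of the Psmd genes. Psmd4, which encodes a ubiquitin receptor, stood at 325. Psmd1, which encodes the other large scaffold, had one of the highest mean counts at 15159 but a level of 203 per kb of span, and genes on its own strand overlap 11.1% of that span. The base genes stood at 1170, 1148 and 2087 per kb of exon in the same order.

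The 8 lid genes ran from 166 per kb of span for Psmd14, the deubiquitinase of the lid, to 395 for Psmd7, its inactive partner. Psmd8 stood at 336, Psmd11 at 288, Psmd12 at 260, Psmd6 at 255, Psmd3 at 246 and Psmd13 at 220, all scaffolding subunits of the lid. Per kb of exon Psmd14 was the highest of the lid at 5225, ahead of Psmd12 at 2440 and Psmd11 at 2016. Psmd7 at 1412 and Psmd13 at 1085 followed, then Psmd6 at 803, Psmd8 at 716 and Psmd3 at 664. The deubiquitinase gene was thus last of the lid on one scale and first on the other, its span being 88683 bp, the longest of all members.

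The assembly factors lay apart from the subunits they help to join. Psmd10, which encodes gankyrin, had a mean count of 257 and 31.0 per kb of span. Psmd9 stood at 20.5 per kb of span, below the median gene on that scale, and at 228 per kb of exon, above it. Its annotated span of 80719 bp starts at chr5:123169413, whereas its RefSeq promoter ends at chr5:123228189, inside that span. The value of Psmd9 per kb of span therefore depends on which start is used. Psmd5 was closer to the subunits, at 161 per kb of span and 562 per kb of exon. The medians of the whole classes were 846, 1360 and 1117 per kb of exon for core, ATPase and non-ATPase genes, and 217, 246 and 251 per kb of span. Over the constitutive genes alone they were 1274, 1360 and 1170 per kb of exon, and 248, 246 and 260 per kb of span. The core class was thus lowest on both scales only with its restricted genes included.

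Across the 31 constitutive genes the mean count followed the length of the gene. The Pearson correlation of log2 mean count with log2 span was 0.93, and Spearman's rho was 0.95. Against summed exon length the values were 0.49 and 0.46. Psmb5, with a span of 3904 bp, had the lowest count, and Psmb7, Psmd1, Psmd14 and Psmd11, with spans of 44634 bp or more, the highest. Psma2 was an exception among the long genes, with a span of 60997 bp and a mean count of 5993. The slope against span was 0.76 on the log2 scale, and 0.81 without Psma2, Psmd1 and Psmd14, the 3 longest genes. For comparison, over the 8156 genes with a mean count of at least 1000 the correlation with span was 0.45 and with exon length 0.38. Over the 15428 genes with a mean count of at least 10 the order turned, with 0.28 for span and 0.38 for exon length. Both sets were cut on the count that is correlated. These are descriptions across genes that share libraries, and genes are not replicates.

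**Figure D2:**
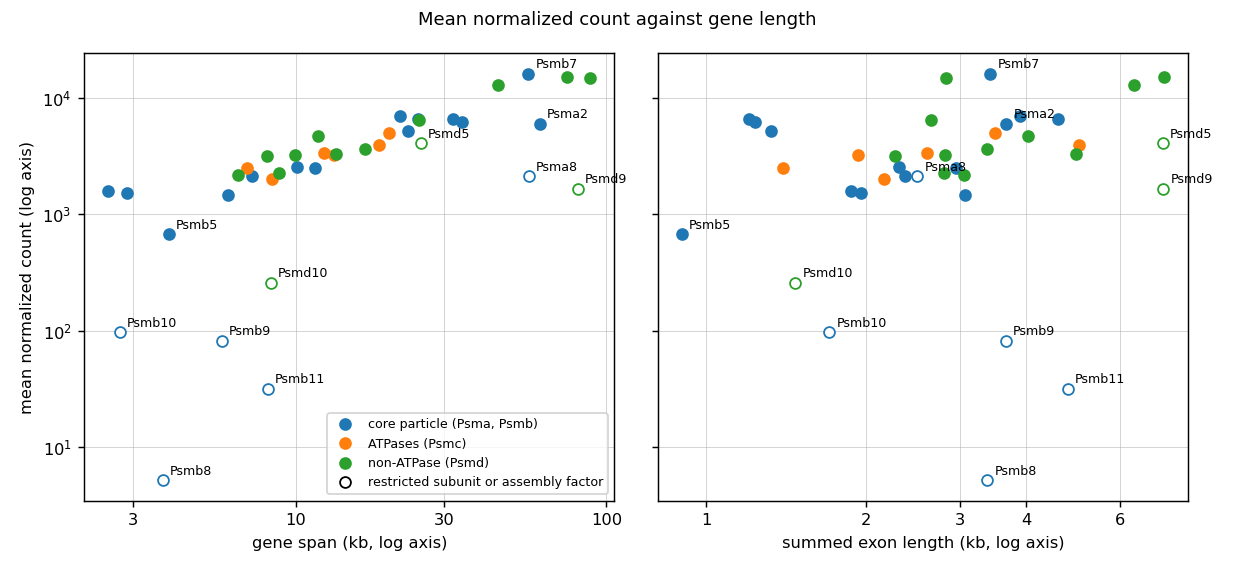
Mean normalized count of the 39 genes against gene span (left) and summed exon length (right) in kb, on log axes; each circle is 1 gene, and open circles are restricted subunits or assembly factors. The filled circles rise along the span axis with a Pearson correlation of 0.93 and scatter more along the exon axis. Psmb8, Psmb9, Psmb10, Psmb11 and Psmd10 lie under them, and on the span axis so do Psma8 and Psmd9.

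Dividing by span accordingly brought the constitutive genes together. The ratio of the highest to the lowest was 24.0 in mean count, 11.4 per kb of exon and 6.46 per kb of span. Of the 31 genes, 25 lay within 1.5 times of the constitutive median of 253 per kb of span, against 14 within 1.5 times of the median of 1295 per kb of exon. The standard deviation over genes fell by the same order, from 1.08 for the count to 0.95 and 0.51 on the log2 scale. On the span scale the constitutive genes had between 71.2% and 98.0% of all genes with reads below them.

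**Figure D3:**
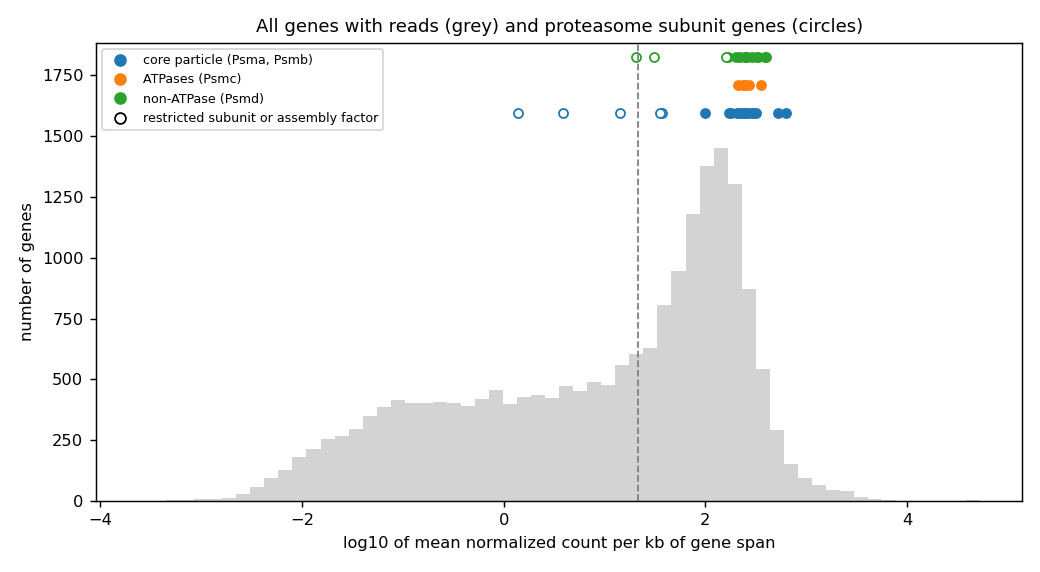
Number of genes (vertical axis) by log10 of mean normalized count per kb of span, for 20140 genes with reads; circles above mark the proteasome genes by class, open for restricted subunits and assembly factors, and the dashed line is the median. The constitutive genes sit together on the right of the distribution, and Psmb8, Psmb11, Psmb9 and Psmd9 lie left of the median. Psmd9 is placed by its annotated span of 80719 bp.

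Genes that act with the proteasome, from a list of 17, lay mostly above the median gene but had a lower median than the constitutive subunits. Of the 17, 16 stood above the median gene per kb of span. The median over the list was 159 per kb of span, against 253 over the constitutive genes. The transcription factors Nfe2l1 and Nfe2l2, which encode NRF1 and NRF2 and activate proteasome genes, were the highest, at 696 and 526 per kb of span, and Ddi2, which encodes the protease that matures NRF1, stood at 234. Among the activators, Psme3 and Psme4, both nuclear, stood at 368 and 304, whereas Psme1 and Psme2, the interferon-responsive pair, stood at 125 and 88.2. The inhibitor gene Psmf1 stood at 117. Chaperones of core assembly ran from 12.8 for Psmg3, the single gene of the list under the median, through 53.8 for Psmg4, 86.0 for Psmg2 and 144 for Psmg1 to 207 for Pomp. Of the subunits and enzymes that join the regulatory particle, the ubiquitin receptor gene Adrm1 stood at 246, the deubiquitinase genes Usp14 and Uchl5 at 218 and 155, and Sem1 at 159.

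Promoter upstream transcripts (PROMPTs) are short-lived RNAs made from a promoter in the direction away from its gene. The study defined them as divergent transcription within 1 kb of a start, so the windows have a common length and their counts are given without division. The gene and PROMPT tables were treated as normalized separately, so no ratio between them is given. Of the 39 members, 30 had a PROMPT in the table, and all 30 had reads, against 72.1% of the 32253 PROMPTs. At a mean count of at least 1 there were 24 of the 30 (80.0%), against 33.7% of all PROMPTs. At a mean count of at least 10 there were 13 (43.3%), against 11.5%. Since PROMPTs are more frequent at active genes, the 6591 PROMPTs of coding genes with a mean count of at least 1000 give a nearer background. Of these 69.0% reached 1, with a median of 3.15, and of the 27 members among them 23 reached 1, with a median of 5.42.

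**Figure D4:**
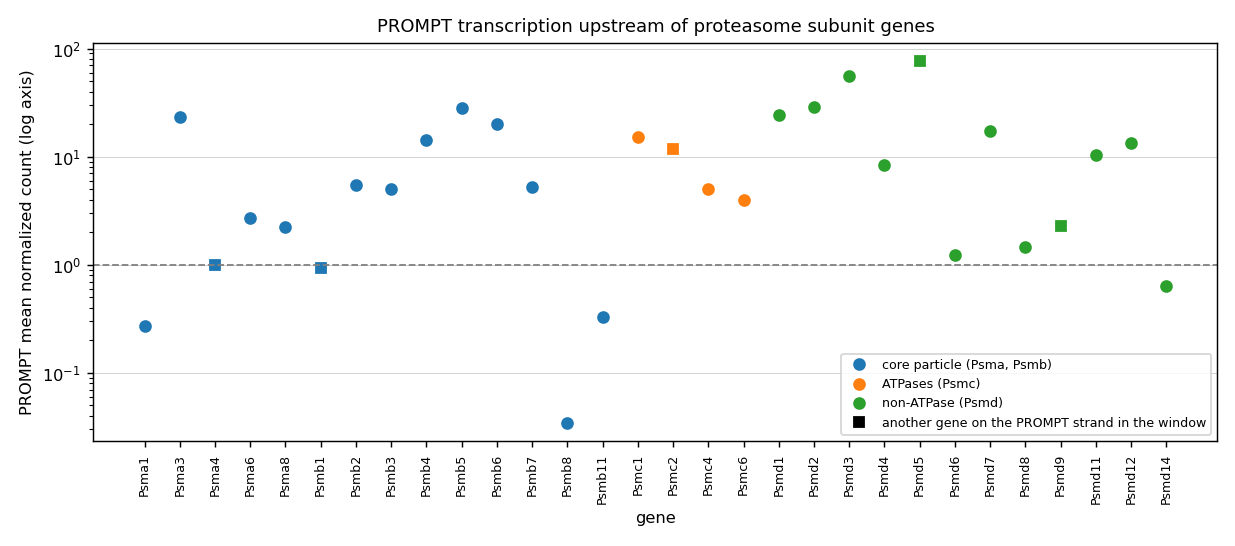
PROMPT mean normalized count (log axis) of the 30 genes with a PROMPT listed under their symbol, coloured by class. Squares mark windows in which another gene lies on the PROMPT strand, and the dashed line is a mean count of 1. Psmd5 and Psmd3 are highest, at 77.0 and 56.0, and 6 genes lie under the line.

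The PROMPTs of the Psmd genes had the highest class median. The PROMPT of Psmd5 had a mean count of 77.0. The coding gene Cutal lies on the same strand within a window at the annotated start, chr2:34874968, and there reads of both cannot be told apart. The RefSeq promoter of Psmd5, chr2:34870963-34871212, lies inside the annotated span, so this overlap depends on which start is used. The PROMPT of the lid gene Psmd3 stood at 56.0 with no other gene in the window, and that of Psmd2, printed above, at 28.9. Psmb5 followed at 27.9, although it had the lowest gene count of the constitutive members. Psmd1 at 24.1, Psma3 at 23.2 and Psmb6 at 20.1 completed the set above 20. Class medians were 11.9 for the 12 Psmd genes, 8.44 for the 4 Psmc genes and 3.90 for the 14 core genes with a PROMPT. Without the windows that hold another gene they were 11.9 over 10 genes, 5.06 over 3 and 5.13 over 12, so that the order of the Psmc and core classes turned.

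At the low end, 6 members had a PROMPT mean count under 1. The restricted genes Psmb8 and Psmb11 stood at 0.0343 and 0.331. The constitutive genes Psma1 at 0.271, Psmd14 at 0.638, Psmb1 at 0.924 and Psma4 at 0.988 were also there, and Psmb1 and Psma4 have another gene in the window, Tbp and AY074887. Psmd14 and Psmd2 thus had unlike upstream values although both are transcribed genes of the regulatory particle, with 166 and 401 per kb of span. Between these ends, the middle of the range was held by Psmd7 at 17.3, Psmc1 at 15.3, Psmb4 at 14.3, Psmd12 at 13.5, Psmc2 at 11.8 and Psmd11 at 10.3. The window of Psmc2 holds the coding gene Dnajc2 and that of Psmd9 holds Gm26745, on the PROMPT strand. For Psmd9, Psmd5 and Psmb11 the window was placed at the start of the annotated span and not at the RefSeq start. For Psma6 it was placed at the outer RefSeq start. Lower values were those of Psmd4 at 8.34, Psmb2 at 5.42, Psmb7 at 5.21, Psmc4 and Psmb3 at 5.06 and Psmc6 at 3.96. Psma6 at 2.74, Psmd9 at 2.29, Psma8 at 2.22, Psmd8 at 1.47 and Psmd6 at 1.22 were just above the limit of 1.

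The 9 members with no PROMPT listed under their symbol had a common arrangement at the promoter. No upstream value was listed for them, so whether they make a PROMPT cannot be seen here. Psma2, Psma5, Psma7, Psmb9, Psmb10, Psmc3, Psmc5, Psmd10 and Psmd13 all had another annotated gene on the divergent strand within 1 kb of the start, against 5 of the 30 members with a PROMPT. For 6 of the 9 that neighbour is a coding gene. Psma2 starts 75 bp from Mrpl32, Psmc5 75 bp from Ftsj3, Psma7 76 bp from Ss18l1 and Psmd10 179 bp from Atg4a, whereas Psmb9 overlaps Tap1 and Psmd13 overlaps Sirt3. Tap1 encodes the peptide transporter that carries proteasome products to MHC class I molecules.

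The relation of gene level and PROMPT level within the family depended on the measure and on which genes were included. Over the 30 members Spearman's rho was 0.087 with the gene level per kb of exon and 0.312 per kb of span, and Pearson's r of the log2 values was 0.52 and 0.63. Over the 25 windows free of another gene rho was 0.141 and 0.468, and r was 0.59 and 0.72. Over the 25 constitutive genes with a PROMPT, which leave out the low Psmb8 and Psmb11, rho was -0.14 and 0.20, and r was -0.13 and 0.29. Over 13709 PROMPTs of coding genes with reads rho was 0.471 and 0.565. Gene and PROMPT share libraries, and genes are not replicates, so these are descriptions only.

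The RefSeq promoter table held 34 promoters of 32 members, each 300 bases long from 250 before to 50 after the start. Psma8, Psmb1, Psmb2, Psmb7, Psmc3, Psmd3 and Psmd7 were not matched. In all 8 motifs were searched on both strands and set beside 32851 promoters of all genes. This background was not limited to transcribed genes, and whether promoters of similarly active genes have like shares was not tested. The ETS motif CCGGAAG was in 11 of the 34 member promoters (32.4%), against 8.86% of all. By class it was in 1 of 15 core genes, 3 of 5 ATPase genes and 6 of 12 non-ATPase genes. The genes were Psma6, Psmc1, Psmc2, Psmc6, Psmd2, Psmd4, Psmd6, Psmd11, Psmd12 and Psmd13. In Psma6 the match lay only in the promoter inside its annotated span. GGGCGG, the core of the SP-family site, was in 19 (55.9%), against 35.7%, and the member promoters had a median G+C share of 55.2% against 52.4%.

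In percentage points the other motifs lay nearer their background, though as a ratio the rare ones did not. CCAAT, bound by NF-Y, was in 13 member promoters (38.2%), against 37.4% of all. TGACNNNGC was in 5 (14.7%), against 12.4%, those of Psmb5, Psmb6, Psmc6, Psmd9 and Psmd12, and TATAAA in 4 (11.8%), against 13.6%. A relaxed form of the interferon-stimulated response element was in 3 (8.82%), against 3.44%, and those were Psmb3, Psmd4 and Psmd9 and none of the immunoproteasome genes Psmb8, Psmb9 and Psmb10. AAGATGGCG, a form of the YY1 site, was in 2 (5.88%), against 1.40%, and in 0 when the bases after the start were left out. A palindromic nuclear respiratory factor site was in 1, that of Psma2 (2.94%, against 0.971% of all). These are matches of letters in a window, with overlaps between motifs allowed, and not sites of binding.

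**Figure D5:**
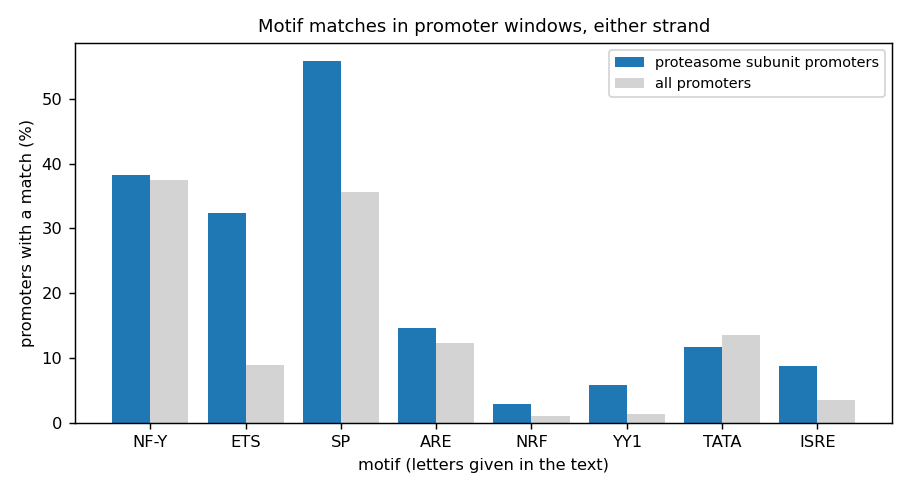
Share of promoters (vertical axis, %) with at least 1 match to each motif on either strand, for 34 promoters of proteasome genes and 32851 promoters of all genes. ETS (32.4% against 8.86%) and SP (55.9% against 35.7%) are the motifs with the widest gap in percentage points.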

How the data were processed

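TT-seq libraries of E14 mouse ES cells were sequenced as paired ends. Trimming by the authors used Trim Galore, and STAR kept uniquely aligned pairs on mm10. The authors then counted pairs by strand with featureCounts over Gencode vM25 genes and PROMPTs, and analysed the counts with DESeq2. The submitters' processing notes also name HTSeq and deepTools. The deposited gene and PROMPT tables each hold 5 value columns. The column used here is a signal, the authors' mean of counts divided by size factors over libraries, and which libraries entered it is not given in the sources used here. The other 4 hold the authors' own comparison (log2 fold change, its standard error, p-value and adjusted p-value) and were not used. Depth per library and the spread between replicates are therefore not known here, and no test was made. Tables of eRNAs and DNase-hypersensitive sites carry identifiers without gene symbols and were not used.

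Lengths were the union of exons and the span of each gene in Gencode vM21 on GRCm38, a release other than that of the authors, and 42 genes had no length there. Coordinates are GRCm38, 1-based. The upstream window for overlaps was 1000 bp. Percentiles, medians, correlations and motif matches were computed in Python 3.11.15 with pandas 2.3.3, numpy 2.4.6 and scipy 1.17.1, figures were drawn with matplotlib 3.10.9, and the functions were tested on simulated data. All members were to be given values, with more detail for the catalytic pairs, the extremes of each class and the highest and undetected PROMPTs. The members and lists were chosen with earlier results of these data known. Other length scales, thresholds and subsets were tried as alternatives.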

Additional observations from a re-analysis of the deposited data

How the results depend on the processing

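Of 40 alternatives, 23 left their value on the same side or within 1.5 times of that reported. With no replicate spread, a change of over 1.5 times was taken as a move. Per kb of span in place of exon, the class medians were 217, 246 and 251, the Psmb7 to Psmb10 and Psmb5 to Psmb8 ratios 8.04 and 125, the spread within the constitutive core genes 0.66 on the log2 scale, and the correlation of gene and PROMPT level 0.312. By longest transcript the core median was 1696, and over constitutive genes alone 1274. Without division by length the Psmb6 to Psmb9, Psmb7 to Psmb10 and Psmb5 to Psmb8 ratios were 19.4, 166 and 131. At a mean count of at least 10, 13 members had a PROMPT. Without windows that hold another gene the Psmc median PROMPT count was 5.06. The gene and PROMPT correlation was 0.141 over windows free of other genes and turned to -0.14 over constitutive genes. In the bases before the start alone, AAGATGGCG was in 0% of member promoters. The cause of these shifts was not tested beyond the change of length, threshold or members itself. The subset of constitutive genes for the PROMPT correlation, the class medians over free PROMPT windows, the count without length for the core spread, and both alternatives for the relation with gene length were chosen after seeing the data.

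No paired analysis was possible because the deposited mean pools the libraries and no result comes from a test. Leaving out each replicate could not be run for the same reason. Depth limits most the low values, such as the PROMPT of Psmb8, at 0.0343 against a lowest value above 0 of 0.0266 in the table.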
